A study of Homo sapiens with 4 samples.

Results

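The 10 genes described here encode subunits of the transcription factor NF-kB, its inhibitors and a few of its targets: NFKB1, NFKB2, RELA, RELB, NFKBIA, NFKBIE, TNFAIP3, BIRC3, ICAM1 and TRAF1. They were taken as a list of symbols, and all 10 were found among the 62893 Ensembl identifiers of the count tables. RNA sequencing was done on total RNA of Hep-G2, a human hepatoma-derived line, at passage 21. The scramble group carried the control shRNA SHC002, and the shFTO group carried the shRNA TRCN0000246247 against FTO, a demethylase of adenosines in RNA. The series set out to examine Hep-G2 cells after FTO knockdown. Each group has 1 shRNA and 2 count tables, called run 1 and run 2, and the labels do not say whether either line is a single clone or the runs come from separate cultures.

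The 4 tables held from 20047409 to 20706611 gene-assigned reads. The runs of a group differed by about as much as sampling noise alone gives. Over genes with at least 20 reads, the chi-square per degree of freedom was 1.019 for scramble and 1.013 for shFTO. Between the groups it was 118.5 to 120.4. Runs of a group were therefore pooled and counted as 1 sample, so every fold below sets 1 sample against 1 sample without a replicate check. FTO itself had 594 and 550 reads with the scramble shRNA and 116 and 128 with the shRNA against it, a level 5.32-fold lower in shFTO (95% interval 4.63 to 6.13). Of 8 hepatocyte and hepatoma markers all 8 were detected, and all 8 were lower in shFTO by edgeR's calls between the libraries. Among all genes with enough reads to be tested, edgeR called 33.4% lower. The 8 markers summed to 35395 to 35432 CPM (reads scaled by library size) in scramble and 15345 to 15418 in shFTO. ALB, the gene of albumin, was 3.2-fold lower. Of the markers of other cells, PTPRC, CD3E, CD2, MS4A1, PECAM1, KDR, COL3A1, LUM and DCN had no read in any run, which allows a level of up to 0.0785 CPM in scramble and 0.0692 in shFTO (3 reads over the pooled runs). The 8 macrophage markers summed to 3004 and 3011 CPM in scramble and 233 in each shFTO run, with 3 of 8 detected well enough to be tested. LYZ made up nearly all of that sum and was 13-fold lower in shFTO. CD14 and AIF1, the others tested, reached at most 1.64 and 1.81 CPM in any run. CD68, CD163, CSF1R and MARCO had at most 1 read in any run. The 8 lymphocyte markers summed to between 3.51 and 5.08 CPM over the 4 runs, the 8 endothelial markers to between 0.28 and 0.518, and the 8 fibroblast markers to between 39.9 and 57.2. The part of these shifts in the NF-kB values was not tested. In such bulk RNA, fewer cells of a type and less RNA per cell cannot be told apart.

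NF-kB is a family of dimers built from RELA, RELB, REL and the processed products of NFKB1 and NFKB2. In resting cells IkB proteins such as those of NFKBIA and NFKBIE hold the dimers in the cytoplasm, and signals from receptors of the TNF and interleukin families release them by having the inhibitors phosphorylated, ubiquitinated and degraded. The freed dimers bind kB elements in DNA and raise transcription of inflammatory and survival genes, among them several genes of their own inhibitors, so the pathway shuts itself down. In liver cells it is known for the acute phase response and for protection from TNF-induced death.

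Several members are textbook examples of this feedback, and promoter stretches that hold kB motifs are shown, 1 for each gene with a match, so that the values below can be read beside them. RefSeq promoter windows (GRCh38.p14, 250 bases before to 50 after an annotated start) were available for 8 of the 10 members, with 14 windows in all. The kB consensus, searched on both strands, was found in windows of 5 of these 8 genes: NFKB1, NFKB2, NFKBIA, TNFAIP3 and BIRC3. Among all genes with a window, 13.3% (3619 of 27305) had at least 1 match, and genes with several windows have more chances of one. In the lines below, 5′ to 3′ on the strand of the gene, capitals mark the matched bases.
NFKB1: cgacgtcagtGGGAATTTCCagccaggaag
NFKB2: gggccgagaaGGGGCTTTCCcggccctgag
NFKBIA: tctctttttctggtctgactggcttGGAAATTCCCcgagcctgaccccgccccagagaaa
TNFAIP3: ctttGGAAAGTCCCgtGGAAATCCCCgggc
BIRC3: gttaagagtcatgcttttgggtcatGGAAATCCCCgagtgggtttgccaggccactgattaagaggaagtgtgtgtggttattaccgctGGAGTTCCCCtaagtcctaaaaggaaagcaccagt
The NFKB1 stretch lies at chr4:102501300-102501329 on the plus strand, and the NFKB2 stretch at chr10:102394490-102394519 on the plus strand. The NFKBIA stretch lies at chr14:35404796-35404855 on the minus strand, the TNFAIP3 stretch at chr6:137867188-137867217 on the plus strand and the BIRC3 stretch at chr11:102317260-102317383 on the plus strand. NFKB2 had the most matches, in windows of 2 of its starts. In the window shown they begin 107, 106 and 78 bases before the start, the first 2 overlapping, and only the last is printed. In its other window, not printed, they begin 176 and 21 bases before the start. The TNFAIP3 and BIRC3 windows each held 2 matches, beginning 67 and 55 bases before the start in TNFAIP3 and 199 and 135 bases before it in BIRC3.

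ICAM1, the member with the largest difference between the groups, had no match to the consensus. Its window holds TGGAAATTCC, the known kB element of ICAM1, which is 1 base off the consensus and was searched only after the consensus had missed it. The element and its surroundings are shown beside the promoter of CCL20, the wider-list gene with the largest difference.
ICAM1: tgctttagctTGGAAATTCCggagctgaag
CCL20: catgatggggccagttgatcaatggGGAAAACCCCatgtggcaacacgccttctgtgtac
The ICAM1 stretch lies at chr19:10270923-10270952 on the plus strand, with the element beginning 187 bases before the start, and the CCL20 stretch at chr2:227813738-227813797 on the plus strand, with the match beginning 79 bases before it. The letters TGGAAATTCC were taken from the ICAM1 window, so the match of ICAM1 was fixed in advance. They were also found in NFKB1 and NFKBIA, where they overlap a consensus match already counted. Among all genes 0.136% held them (37 of 27305), these members included. RELA and TRAF1 had no match to either pattern in their windows, which says only that the letters are not there.

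**Figure D1:**
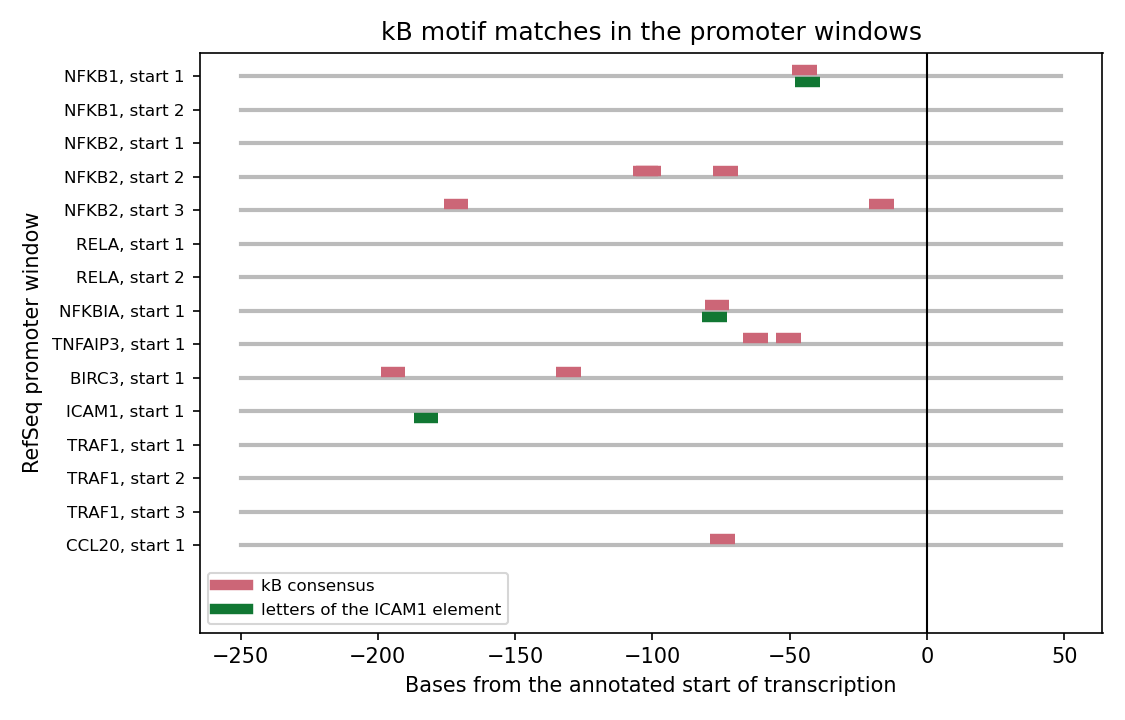
Matches to the kB consensus (red) and to the letters of the ICAM1 element (green) in each RefSeq promoter window of the members and of CCL20, drawn as blocks on grey lines. The x axis is the distance in bases from the annotated start; the matches lie upstream of the start, and RELA and TRAF1 have none.

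Across the 10 members, 1 gene, ICAM1, was at least 2-fold lower in shFTO and none was higher by that much. Among the 13767 genes with enough reads to be tested, 6.19% were lower and 5.18% higher by 2-fold or more, 11.4% in all. At 1.5-fold or more ICAM1 was still the only such member, against 24.8% of all tested genes, 13.4% lower and 11.4% higher. With plain library totals, NFKB1 and RELB also passed 1.5-fold, with log2 ratios of 0.60 and 0.65. All 10 members had enough reads, and their median log2 ratio of shFTO over scramble was 0.11, against 0.01 over all tested genes. The library sizes behind CPM were corrected with TMM, edgeR's trimmed mean of log ratios. Intervals are exact 95% Clopper-Pearson intervals and cover counting error only. The quasi-likelihood test of edgeR, with p adjusted by Benjamini-Hochberg over all tested genes, here compares the libraries and not the conditions. By it 4 members were higher (33.2% of all tested genes were), 3 were lower (33.4%) and 3 were neither. The share of members called either way was thus near that of all genes, 66.6%. The split of all genes was 4576 higher and 4594 lower with TMM but 6711 higher and 3041 lower when libraries were scaled by their plain totals, which moved the median of all genes up by 0.168 on the log2 scale. Directions below are those with TMM, and RELA is the 1 member whose sign changed with the scaling.

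**Figure D2:**
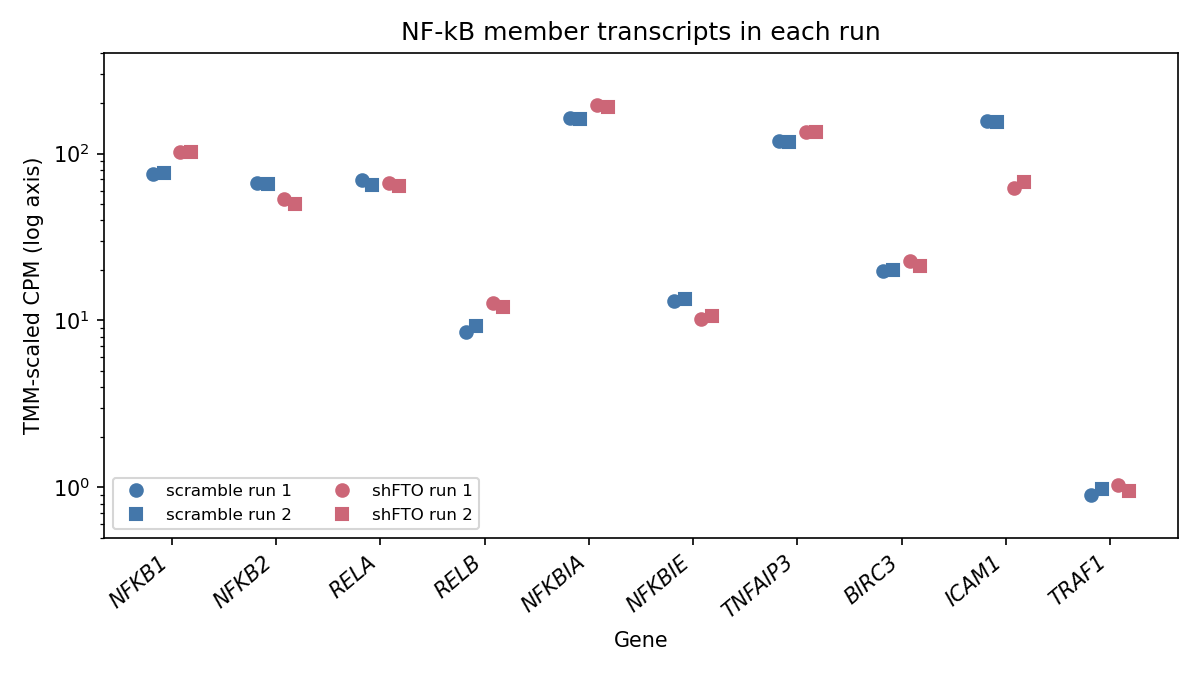
Level of each member in each run, in TMM-scaled CPM on a log axis, with scramble in blue and shFTO in red, circles for run 1 and squares for run 2. The 2 runs of a group lie close together for every member, and ICAM1 shows the widest gap between the groups, 155 CPM in scramble and 65 in shFTO.

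The subunit genes differed in direction. NFKB1 encodes a precursor that is processed to a DNA-binding subunit without an activation domain of its own. It was at 75.4 and 76.2 CPM in scramble and 102 in both shFTO runs, 1.35-fold higher (1.28 to 1.41). Both shFTO runs lay above both scramble runs. Runs of the groups did not overlap in 81.5% of all tested genes, so here and below this describes the runs and is no replicate check. NFKB2, the precursor gene of the non-canonical branch, was at 66.3 and 66 CPM in scramble and 53.1 and 49.9 in shFTO, 1.28-fold lower (1.21 to 1.36). Both its shFTO runs lay below both scramble runs, so the 2 precursor genes differed in opposite directions.

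RELB, the partner of the processed NFKB2 product, had 160 and 179 reads in scramble and 274 and 264 in shFTO. That is 8.47 and 9.27 CPM against 12.8 and 12, or 1.4-fold higher (1.22 to 1.61), and the groups did not overlap. RELA, the main transactivating subunit, was at 69.6 and 64.6 CPM in scramble and 66.9 and 64.1 in shFTO. Its runs overlapped, the ratio was 0.976 (0.925 to 1.03), and edgeR did not call it. With plain library totals its log2 ratio was 0.13 in place of -0.03, and edgeR then called it higher. REL, the remaining subunit gene and not a member, had 102 and 113 reads in scramble and 122 and 131 in shFTO, a ratio of 1.04.

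Ratios of reads within a run need no scaling between libraries. They restate the differences above from the same reads and are not a separate check. The NFKB1 to NFKB2 ratio was 1.14 and 1.15 in scramble and 1.91 and 2.05 in shFTO, 1.73-fold higher. The RELB to NFKB2 ratio was 0.128 and 0.14 in scramble and 0.241 in both shFTO runs, 1.8-fold higher. Neither ratio overlapped between the groups, and how often ratios of other gene pairs do not overlap was not computed. The NFKB1 to RELA ratio was 1.08 and 1.18 in scramble and 1.52 and 1.6 in shFTO, and the RELB to RELA ratio was 0.122 and 0.143 against 0.191 and 0.188. NFKB1 and RELB thus stood higher against both RELA and NFKB2 within the same library.

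In reads, NFKB1 led the subunit genes in all 4 runs. In scramble it had 1425 and 1471, against 1252 and 1275 for NFKB2 and 1315 and 1248 for RELA. Per kilobase of exon, the order changed between the groups. The length used is that of all annotated exons of a gene, 6257 bases for NFKB1, 4484 for NFKB2 and 5464 for RELA. The lengths of the transcripts expressed are not known, and the change of leader rests on the lengths used. NFKB2 led in scramble with 34.6% and 34.9% of the reads per kilobase over the 5 subunit genes, and NFKB1 led in shFTO with 36.1% and 37.5%. NFKB2 took 26.3% and 25.5% in shFTO, and NFKB1 28.2% and 28.8% in scramble. RELA held 29.8% and 28% in scramble and 27.2% and 26.9% in shFTO. RELB took 6.52% and 7.23% in scramble and 9.38% and 9.08% in shFTO, while REL stayed between 0.958% and 1.05% in all 4 runs. Transcript shares do not give protein shares, and the precursors of NFKB1 and NFKB2 are processed after translation.

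**Figure D3:**
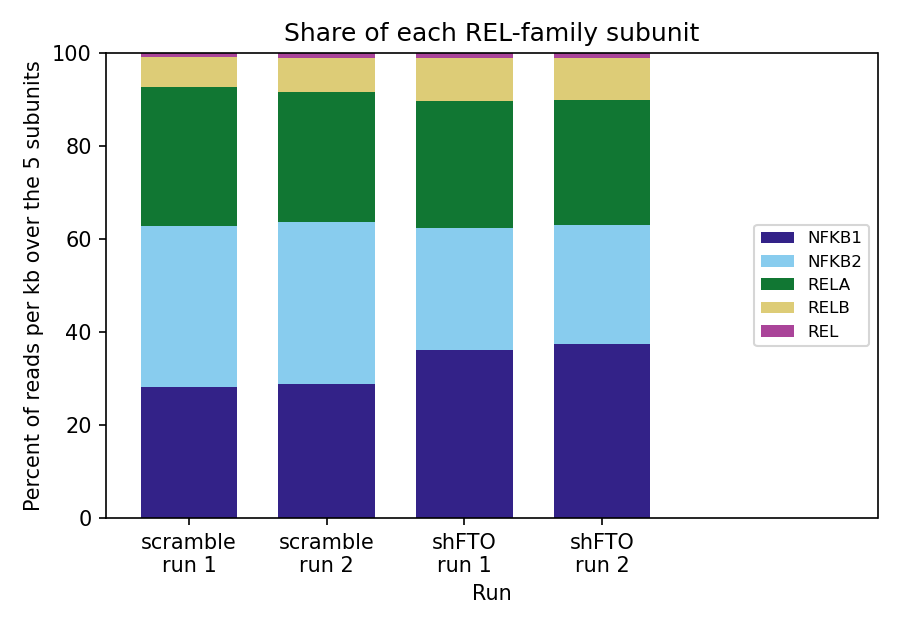
Share of each subunit gene, in percent of the reads per kilobase of exon summed over the 5 subunit genes, as stacked bars for each of the 4 runs. NFKB2 has the largest share in both scramble runs and NFKB1 in both shFTO runs. In reads without division by length, NFKB1 leads in all 4 runs.

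The inhibitor genes also differed in direction. NFKBIA encodes IkB-alpha, the fast-induced inhibitor whose promoter is shown above. It had 3091 and 3137 reads in scramble and 4144 and 4158 in shFTO. In CPM this was 164 and 162 against 194 and 190, 1.18-fold higher (1.14 to 1.21). NFKBIE, which encodes IkB-epsilon, was at 13 and 13.4 CPM in scramble and 10.2 and 10.6 in shFTO, 1.27-fold lower (1.12 to 1.45). The runs of neither gene overlapped between groups. Within a run, NFKBIA had 12.6 and 12.1 reads for each NFKBIE read in scramble and 19 and 17.8 in shFTO, 1.49-fold more. The lower level of NFKBIE depended on the scaling: with plain library totals its log2 ratio was -0.18, the interval of the ratio was 0.777 to 1.01, and edgeR no longer called it.

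TNFAIP3, a ubiquitin-editing enzyme that shuts off signalling upstream of the IkB kinase, was at 119 and 118 CPM in scramble and 135 and 134 in shFTO, 1.13-fold higher (1.09 to 1.18). Its level relative to NFKBIA was 0.725 and 0.728 in scramble and 0.697 and 0.705 in shFTO, so the ratio of these feedback genes differed little between the groups. An antisense gene, WAKMAR2, overlaps exons of TNFAIP3. It had 12 reads in each scramble run and 6 and 7 in the shFTO runs, and with the strand setting unstated in the sources used here, reads of the overlap cannot be told apart. BIRC3, a ubiquitin ligase of the TNF receptor complex, was at 19.7 and 20.1 CPM in scramble and 22.8 and 21.1 in shFTO. Its runs did not overlap, but the ratio of 1.1 had an interval of 0.999 to 1.21 and edgeR did not call it. It was called higher with plain library totals, with upper-quartile scaling and without shFTO run 2.

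ICAM1, the adhesion molecule that binds leukocyte integrins and a standard readout of NF-kB activity, stood apart from the other members. It had 2953 and 2967 reads in scramble and 1338 and 1478 in shFTO. The levels were 156 and 154 CPM against 62.5 and 67.4, 2.38-fold lower (2.28 to 2.5). Relative to NFKBIA in the same run it was at 0.955 and 0.946 in scramble and 0.323 and 0.355 in shFTO, 2.8-fold lower. Relative to RELA it was at 2.25 and 2.38 against 0.935 and 1.05, 2.33-fold lower. Against both genes ICAM1 thus lay more than 2-fold lower without scaling between libraries, and with plain library totals its log2 ratio was -1.09. Against NFKB2 and NFKBIE, themselves lower in shFTO, the difference in reads is smaller and stays under 2-fold. LIMASI and ICAM4-AS1, the antisense genes that overlap ICAM1, had at most 1 read in any run. TRAF1, an adaptor of TNF receptors, was barely detected, with 17 and 19 reads in scramble and 22 and 21 in shFTO. At 0.9 to 1.03 CPM its runs overlapped, and its ratio of 1.05 had an interval of 0.66 to 1.69, so a difference below that size was not detectable at this depth.

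Taking overlap as a description, the runs of the groups did not overlap in 8 of the 10 members, and the same was true of 81.5% of all tested genes.

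**Figure D4:**
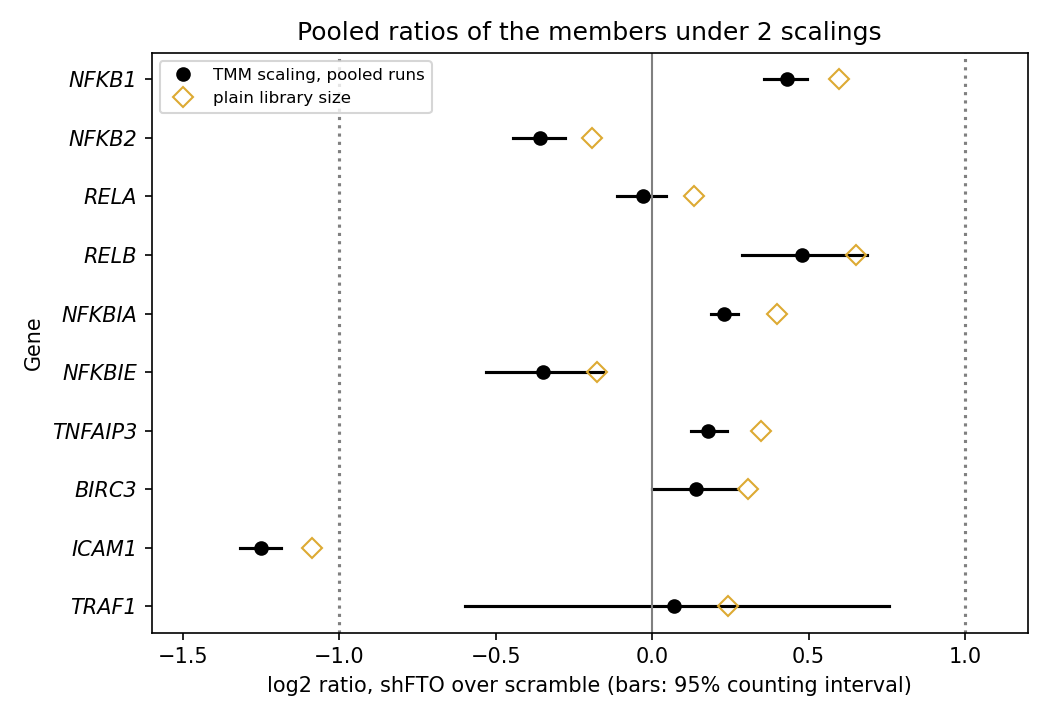
Log2 ratio of shFTO over scramble for each member, pooled runs with TMM scaling, as black points with exact 95% counting intervals, and with plain library totals as open diamonds. With TMM, ICAM1 lies at -1.25, past the dotted line of a 2-fold difference, and the other members lie between -0.36 and 0.48.

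Between genes, levels per kilobase of exon put NFKBIA first in both groups, at 68.7 CPM per kilobase in scramble and 80.7 in shFTO. ICAM1 was the second in scramble at 41.8 and TNFAIP3 the second in shFTO at 26.6. ICAM1 was the third in shFTO at 17.5, with runs at 16.9 and 18.2, just above NFKB1 at 16.3. In scramble, RELA at 12.3 and NFKB1 at 12.1 had overlapping runs, below NFKB2 at 14.8. In shFTO, RELA at 12 and NFKB2 at 11.5 overlapped, as did RELB at 4.09 and NFKBIE at 4.03. In scramble NFKBIE was at 5.12 and RELB at 2.92. BIRC3, at 2.65 and 2.92, and TRAF1, at 0.146 and 0.154, were the lowest in each group. The neighbours named here without an overlap had run ranges that did not meet. These orders between genes rest on the length of all annotated exons of each gene, which may differ from that of the transcripts expressed.

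The rest of the pathway was read in 6 lists by role, 135 genes in all, of which 93 had enough reads to be tested and 14 had no read. Of the 93, 3 were higher and 8 lower by at least 2-fold, beside 5.18% and 6.19% of all tested genes. Of the same 93, edgeR called 30 higher, 36 lower and 27 neither, beside 33.2% higher and 33.4% lower of all tested genes. Their median log2 ratio was -0.00, against 0.01 over all tested genes.

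Ligands were little expressed: 4 of 12 were tested, with a median log2 ratio of -0.31. By at least 2-fold, 1 was higher (5.18% of all tested genes were) and 1 lower (6.19%). IL18, a cytokine of the interleukin-1 family, had 23 and 38 reads in scramble and 109 and 137 in shFTO, 3.56-fold higher (2.68 to 4.79). TNFSF10, the death ligand TRAIL, had 115 and 137 reads in scramble and 39 and 55 in shFTO, 3.04-fold lower (2.39 to 3.9). TNFSF12, the ligand TWEAK, was 1.55-fold lower (1.33 to 1.81). TNF, the classical inducer of the pathway, had 1 and 3 reads in scramble and 3 and 4 in shFTO, and IL1B had none, so the level of neither could be compared.

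Of 19 receptors, 11 were tested (median -0.05). By at least 2-fold, 1 was lower (6.19% of all tested genes were) and none higher (5.18%). That one was CD40, a TNF receptor family member that feeds both branches of the pathway. It had 258 and 244 reads in scramble and 124 and 121 in shFTO, 2.32-fold lower (1.99 to 2.72). IL1RAP, the co-receptor for interleukin-1, was 1.89-fold lower (1.74 to 2.05), and FAS, a death receptor, was 1.74-fold higher (1.53 to 2). The main TNF receptor TNFRSF1A was at 93.6 CPM in scramble and 79.8 in shFTO.

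None of the 27 tested kinases and adaptors of 30 was 2-fold apart, against 11.4% of all tested genes. The log2 ratios of these 27 ran from -0.84 to 0.51 with a median of 0.00. CARD10, a scaffold upstream of the IkB kinase, was 1.79-fold lower (1.7 to 1.89), from 95.2 to 53.1 CPM. BTRC, the part of the ubiquitin ligase that recognises phosphorylated IkB, was 1.56-fold lower (1.43 to 1.71). IKBKB, a catalytic subunit of the IkB kinase, was at 33.5 CPM in scramble and 47.6 in shFTO, and CHUK, the other, at 36.6 and 41.7. IKBKG and IKBKE are listed at 0 under the identifiers matched here, and reads that may stand under earlier identifiers were not used.

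The list of other REL and IkB proteins, 8 of 8 tested, held no gene 2-fold apart (median 0.01), against 11.4% of all tested genes. It also holds IKBIP, NKAP and COMMD1, which are not REL or IkB proteins themselves. BCL3, a nuclear IkB protein that works with the NFKB1 and NFKB2 products, had 391 and 383 reads in scramble and 689 and 762 in shFTO, 1.65-fold higher (1.51 to 1.81). NFKBIZ, another nuclear IkB protein, had 506 and 494 reads in scramble and 346 and 351 in shFTO, 1.63-fold lower (1.48 to 1.8). IKBIP was 1.77-fold lower (1.67 to 1.88). Another nuclear IkB gene, NFKBID, was at 2.17 CPM in both groups, with a ratio of 0.998. The classical IkB gene NFKBIB was at 29 CPM in scramble and 37 in shFTO, 1.27-fold higher. BCL3 and NFKBIZ thus differed in opposite directions, and NFKBID was not called by edgeR.

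Of the other negative regulators, 14 of 16 were tested (median 0.07). By at least 2-fold, 1 was lower (6.19% of all tested genes were) and none higher (5.18%). PDLIM2, which promotes the degradation of nuclear RELA, had 258 and 264 reads in scramble and 128 and 133 in shFTO, 2.27-fold lower (1.95 to 2.64). ZC3H12A, an RNase that degrades inflammatory transcripts, was 1.61-fold higher (1.45 to 1.79).

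Known targets other than the members numbered 50, of which 29 were tested and 8 had no read, among them IL6, CCL2, VCAM1 and SELE. Of the 29, 2 were higher and 5 lower by at least 2-fold, beside 5.18% and 6.19% of all tested genes. Of the same 29, edgeR called 9 higher and 15 lower, beside 33.2% and 33.4% of all tested genes. The median log2 ratio of the 29 was -0.09. CCL20, a chemokine for lymphocytes and dendritic cells whose promoter is shown beside that of ICAM1, had 7802 and 7989 reads in scramble and 638 and 639 in shFTO. Its level was 413 CPM in scramble and 29.5 in shFTO, 14-fold lower (13.2 to 14.9). CEBPD, which encodes an acute phase transcription factor, had 1088 and 1138 reads in scramble and 318 and 288 in shFTO, 4.17-fold lower. Both were lower by more than ICAM1.

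IER3, an early response gene, had 8145 and 8249 reads in scramble and 3223 and 3218 in shFTO, 2.89-fold lower (2.81 to 2.97). LCN2, which binds bacterial siderophores, was 2.46-fold lower (2.07 to 2.95). SOD2, the mitochondrial superoxide dismutase, went from 716 to 341 CPM, 2.1-fold lower (2.06 to 2.14). The 2 targets that were at least 2-fold higher had low levels. PLAU, the urokinase gene, had 24 and 23 reads in scramble and 112 and 96 in shFTO, 3.9-fold higher (2.83 to 5.47), and TNFAIP2 had 13 and 20 against 61 and 72, 3.55-fold higher (2.41 to 5.37). Other targets stood on the opposite side of ICAM1 by less: IRF1 was at 11.7 CPM in scramble and 17.1 in shFTO, IL32 at 373 and 482, and CX3CL1 at 83.5 and 111. The summed level of all 50 targets was 8051 to 8073 CPM in the scramble runs and 6085 to 6099 in the shFTO runs. A few genes carried most of that sum and of its difference: C3, a complement component, was at 4056 CPM in scramble and 3308 in shFTO, and CCL20, SOD2 and IER3 are given above.

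**Figure D5:**
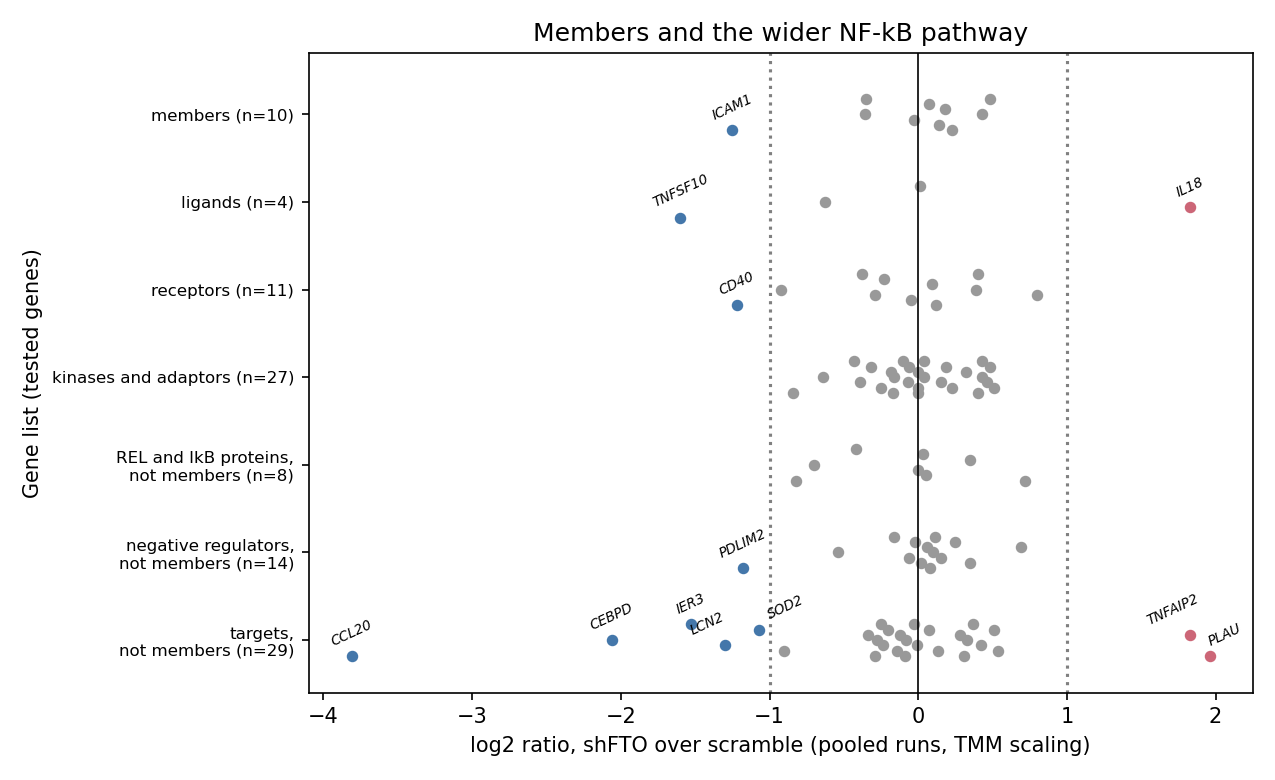
Log2 ratio of shFTO over scramble (x axis, pooled runs, TMM scaling) for each tested gene of the members and of the 6 wider lists, 1 point a gene and 1 row a list, with vertical offsets only to separate the points. Dotted lines mark a 2-fold difference, and genes past them are coloured and named; CCL20 lies farthest out, at -3.81.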

How the data were processed

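RNA sequencing counts of 4 tables were used. Each deposited table gives unnormalized read counts by Ensembl identifier. Per the submitters' processing notes the authors used TopHat2 2.1.1, HTSeq 0.6.0 and build hg19; the annotation release, strand setting and RNA selection are not given in the sources used here. Symbols came from the name tables supplied and GENCODE v29 (51537 of 62893 identifiers), which also gave exon lengths; promoter sequences came from RefSeq (GRCh38.p14). Runs of a group were pooled after a chi-square test (p = 0.0648 for scramble, 0.142 for shFTO), levels scaled by TMM, and a ratio of at least 2-fold was called, without a test. edgeR 4.0.16 (R 4.3.3; filterByExpr, quasi-likelihood, two-sided, adjusted p under 0.05) compared the libraries with 2 residual degrees of freedom and was tested on simulated data. Members and lists were chosen with earlier results of these data known. Genes named are FTO, the members, and in each list up to 4 genes each way of at least 1 CPM that were most changed and at least 1.5-fold apart, with those completing a count of 5 or fewer; other genes named were chosen after their values were seen. Alternatives were other scalings, filters and folds, DESeq2 1.42.0, a replicate block and leaving out each run.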

Additional observations from a re-analysis of the deposited data

How the results depend on the processing

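ICAM1 was the only member at least 2-fold apart under every scaling, filter and left-out run tried. At 1.5-fold it was the only one with TMM, but with plain library totals NFKB1 (log2 0.60) and RELB (0.65) passed too. With those totals the members' median log2 ratio was 0.27 and edgeR called 3041 of all genes lower. With no filter beyond 1 read, 1962 of all genes were at least 2-fold higher and 2128 lower, and 8 wider-list genes were higher. At 1.5-fold, 1569 of all genes were higher and 1841 lower, as were 6 and 15 wider-list genes. Leaving out each run in turn gave members' medians from 0.05 to 0.15 and 4 to 5 members called higher by edgeR, the lone run being assumed to vary like the others. With the replicate number as a block edgeR called 4606 genes higher and 4610 lower (4 and 3 members). The numbers share no more than a name: deviations of same-numbered runs correlated at 0.0021 across genes. DESeq2 called 3256 higher and 3624 lower (4 and 3 members). With 1 sample a group, culture-to-culture error cannot be had, and TRAF1 is limited by its depth.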
